A study of Saccharomyces cerevisiae with 57 samples.

Results

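The upstream regions of the small nucleolar RNA (snoRNA) and spliceosomal small nuclear RNA (snRNA) genes of the budding yeast Saccharomyces cerevisiae were examined in strains in which the general regulatory factors Abf1, Rap1 and Reb1, or no factor, carried micrococcal nuclease (MNase). Members were the nuclear genes of the sacCer3 annotation whose symbol is SNR followed by a number. There were 81 such symbols with 80 separate RNA 5′ ends (SNR7-L and SNR7-S share one), out of 6371 upstream windows of nuclear genes outside the ribosomal DNA (rDNA). Of these 80 genes, 60 are the first or only gene of their unit, 12 lie further down a snoRNA cluster and 8 lie inside introns of other genes. The 60 are described as the main genes and comprise 29 box C/D, 27 box H/ACA and 4 snRNA genes, while the other classes are given apart. The choice used names and positions in the annotation and no measured value. For each gene, fragment ends in the 300 bp before the RNA 5′ end were counted and scaled to EPM (ends per 1000000 nuclear ends outside the rDNA), which is the level given throughout. A level is thus a share of a library's ends and not an amount of cutting.

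In ChEC-seq, calcium is added to permeabilized living cells to switch on the tethered nuclease, and the small DNA fragments it releases are sequenced from both ends, so that each end marks a cut. All strains came from W1588-4C. ABF1, RAP1 or REB1 was tagged at its C terminus, at its own locus, with a linker holding the 3FLAG epitope and MNase. The free MNase strain had its untagged factors and expressed 3FLAG-MNase with the SV40 nuclear localization signal from the REB1 promoter at URA3. In short linker strains of Abf1 and Reb1 the 3FLAG was absent, and in the N-terminal strain MNase-3FLAG-REB1 was expressed from a plasmid under the REB1 promoter with chromosomal REB1 deleted. The 56 libraries comprised 3 replicates each of Abf1, Rap1 and Reb1 at 30 s of digestion, and 1 library for free MNase at 30 s, for each strain without calcium and at 10, 20, 40, 50 and 60 s and 2.5, 5, 10 and 20 min, and for each tag variant at 30 s and 5 min. Per the study's methods, time points were aliquots taken from a digest. Whether the times up to 60 s and those from 2.5 min came from the same digest is not stated. Per the study's methods a culture was grown for each experiment, but neither they nor the labels state that every replicate at 30 s was such an experiment, so p-values measure the spread between these libraries, part of which may be technical.

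The libraries held from 47677 fragments (free MNase at 20 s) to 7565129. At 30 s a main window held a median of 112 ends in the free MNase library (59 to 174) and medians of 184 to 488 ends in the 9 factor libraries, so levels in free MNase were the least precise. Replicates of Abf1 had a median coefficient of variation of 12.7%, those of Rap1 20.8% and those of Reb1 23.8%. The sample titles carry a code, called the run code here, that differed between strains. Abf1 and Rap1 replicate 1 shared it with Reb1 replicates 2 and 3, Abf1 and Rap1 replicates 2 and 3 shared another, and Reb1 replicate 1 shared that of the free MNase libraries.

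SnoRNAs guide the chemical modification of ribosomal RNA in the nucleolus. Box C/D snoRNAs direct 2′-O-methylation and box H/ACA snoRNAs direct pseudouridylation, whereas a few, such as U3 (SNR17A and SNR17B) and snR30, are needed for the cleavages that release 18S rRNA. Most yeast snoRNAs are transcribed by RNA polymerase II from their own promoters, the exceptions here being SNR52 and the U6 gene SNR6, which RNA polymerase III transcribes. Many snoRNA precursors are trimmed at the 5′ end, for instance by the endonuclease Rnt1, so the promoter may lie some distance upstream of the annotated end. Abf1, Rap1 and Reb1 are abundant sequence-specific factors that help keep promoters free of nucleosomes. Rap1 is best known at ribosomal protein genes and telomeres, and Tbf1, which was not tagged here, is known at snoRNA promoters.

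Sets of motif matches are shown first, in the orientation of the gene and read 5′ to 3′ from RefSeq sequence of sacCer3. Each region shown has 41 bases centred on a match, and the capitals mark the match. The first set holds every main window with a match to the bipartite Abf1 consensus on either strand, because Abf1 cleaved all of them strongly. The genes with the highest Abf1 differences, SNR30, SNR64 and SNR3, hold no such match and are not in this set.
SNR4, chrV:424515-424555, plus strand: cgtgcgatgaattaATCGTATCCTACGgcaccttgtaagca
SNR13, chrIV:1402773-1402813, plus strand: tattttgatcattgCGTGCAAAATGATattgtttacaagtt
SNR56, chrII:87882-87922, plus strand: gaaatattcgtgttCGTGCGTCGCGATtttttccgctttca
SNR9, chrXV:408249-408289, minus strand: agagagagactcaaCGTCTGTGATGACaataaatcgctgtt
SNR7, chrVII:939797-939837, minus strand: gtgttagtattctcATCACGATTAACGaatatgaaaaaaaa
SNR14, chrV:167702-167742, minus strand: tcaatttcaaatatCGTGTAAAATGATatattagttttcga

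The second set holds 6 of the 11 matches to the Reb1 motif TTACCCG, which reads CGGGTAA on the other strand. These matches were mostly at box H/ACA genes. SNR45 is the box C/D gene among them, SNR19 encodes U1 snRNA, and SNR86 is the match from which the cleavage lay farthest.
SNR189, chrIII:178894-178934, minus strand: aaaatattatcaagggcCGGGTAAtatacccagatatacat
SNR83, chrXIII:626079-626119, plus strand: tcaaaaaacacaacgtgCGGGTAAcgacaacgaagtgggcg
SNR11, chrXIII:652100-652140, plus strand: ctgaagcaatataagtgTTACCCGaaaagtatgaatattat
SNR45, chrXVI:821570-821610, plus strand: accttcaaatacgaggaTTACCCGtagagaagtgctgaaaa
SNR19, chrXIV:230805-230845, minus strand: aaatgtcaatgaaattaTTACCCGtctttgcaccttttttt
SNR86, chrXIII:763380-763420, minus strand: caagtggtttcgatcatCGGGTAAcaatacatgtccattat

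The third set shows the Rap1 motif ACCCNNACA at both U3 genes, where Rap1 cleaved strongly, and at SNR30, where it did not. In SNR30 the match overlaps TTACCC, a Reb1 motif that lacks its last base.
SNR17A, chrXV:779851-779891, plus strand: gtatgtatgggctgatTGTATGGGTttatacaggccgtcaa
SNR17B, chrXVI:281752-281792, minus strand: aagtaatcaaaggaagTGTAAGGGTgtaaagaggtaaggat
SNR30, chrXII:198613-198653, plus strand: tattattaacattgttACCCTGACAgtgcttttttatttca

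SNR81 and SNR85 were among the 3 highest Reb1 signals without holding TTACCCG, and 61 bases around their cleavage are shown with the 25 bases of most Reb1 cleavage in capitals. The SNR81 region holds CCGGGTA, in which the motif lacks its first T.
SNR81, chrXV:234111-234171, plus strand: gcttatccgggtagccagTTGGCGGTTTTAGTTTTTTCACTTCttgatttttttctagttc
SNR85, chrXIII:68127-68187, minus strand: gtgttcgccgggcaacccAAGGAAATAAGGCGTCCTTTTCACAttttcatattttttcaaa

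The whole 300 bp windows of SNR189, SNR17A and SNR30, the genes with the highest Reb1, Rap1 and Abf1 differences, follow with every match to the Abf1, Rap1, Reb1 and Tbf1 (ANCCCTAA) motifs in capitals. The last base of each is the one before the RNA 5′ end.
SNR189, chrIII:178799-179098, minus strand: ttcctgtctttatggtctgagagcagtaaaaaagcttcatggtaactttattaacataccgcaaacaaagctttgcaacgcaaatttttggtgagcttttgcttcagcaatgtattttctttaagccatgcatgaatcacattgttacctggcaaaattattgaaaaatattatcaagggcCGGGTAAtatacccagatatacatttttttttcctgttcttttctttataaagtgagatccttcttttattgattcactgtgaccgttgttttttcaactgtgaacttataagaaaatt
SNR17A, chrXV:779807-780106, plus strand: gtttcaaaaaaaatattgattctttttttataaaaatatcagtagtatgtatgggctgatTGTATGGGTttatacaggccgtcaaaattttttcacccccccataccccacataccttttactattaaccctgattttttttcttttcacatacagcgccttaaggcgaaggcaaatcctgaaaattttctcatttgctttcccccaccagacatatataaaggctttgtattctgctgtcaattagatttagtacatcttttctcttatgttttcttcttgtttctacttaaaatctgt
SNR30, chrXII:198484-198783, plus strand: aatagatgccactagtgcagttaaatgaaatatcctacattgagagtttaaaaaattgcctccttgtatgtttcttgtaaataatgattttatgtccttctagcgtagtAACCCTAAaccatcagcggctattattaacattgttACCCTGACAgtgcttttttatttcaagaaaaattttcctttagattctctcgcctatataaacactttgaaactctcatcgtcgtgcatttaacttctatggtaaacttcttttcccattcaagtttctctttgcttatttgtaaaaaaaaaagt

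Whether each factor cut these regions above the background of untethered nuclease was asked at 30 s, the time with replicates. Differences are in log2(level + 1), tested with limma over the 10 libraries of 4 strains and adjusted by Benjamini-Hochberg over 6361 windows. The lone free MNase library was assumed to vary like the others. A gene was called strongly cleaved at an adjusted p under 0.05 and a log2 difference of at least 2, a 4-fold change on that scale.

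At least 1 factor cleaved 42 of the 60 main genes strongly (70% of the members, against 36.8% of all windows). Abf1 was higher than free MNase at 38 genes and lower at 3, where 38.5% of all windows were called higher and 22.2% lower, and it cleaved 22 genes strongly (36.7% of members, 20.7% of all windows). Rap1 was higher at 25 and lower at 5 genes (16.6% and 51.9% of all windows), with 13 strongly cleaved (21.7% of members, 8.98% of all windows). Reb1 was higher at 36 and lower at 3 genes (25.8% and 37.1% of all windows), with 25 strongly cleaved (41.7% of members, 16% of all windows). Abf1 had a median log2 difference over the 60 genes of 1.25, Rap1 of 0.54 and Reb1 of 1.22, where the medians over all windows were 0.26, −0.83 and −0.42. For Rap1 these counts moved with the scaling: with libraries scaled by the median ratio over windows it was higher at 40 and lower at 1 gene, 25 of them strongly, and with the scaling of the authors' software it was higher at 22 and lower at 21. Counting identical fragments once gave Rap1 22 strongly cleaved genes. The few genes called lower for Rap1 numbered 3 without Rap1 replicate 3 and 8 without Reb1 replicate 1.

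**Figure D1:**
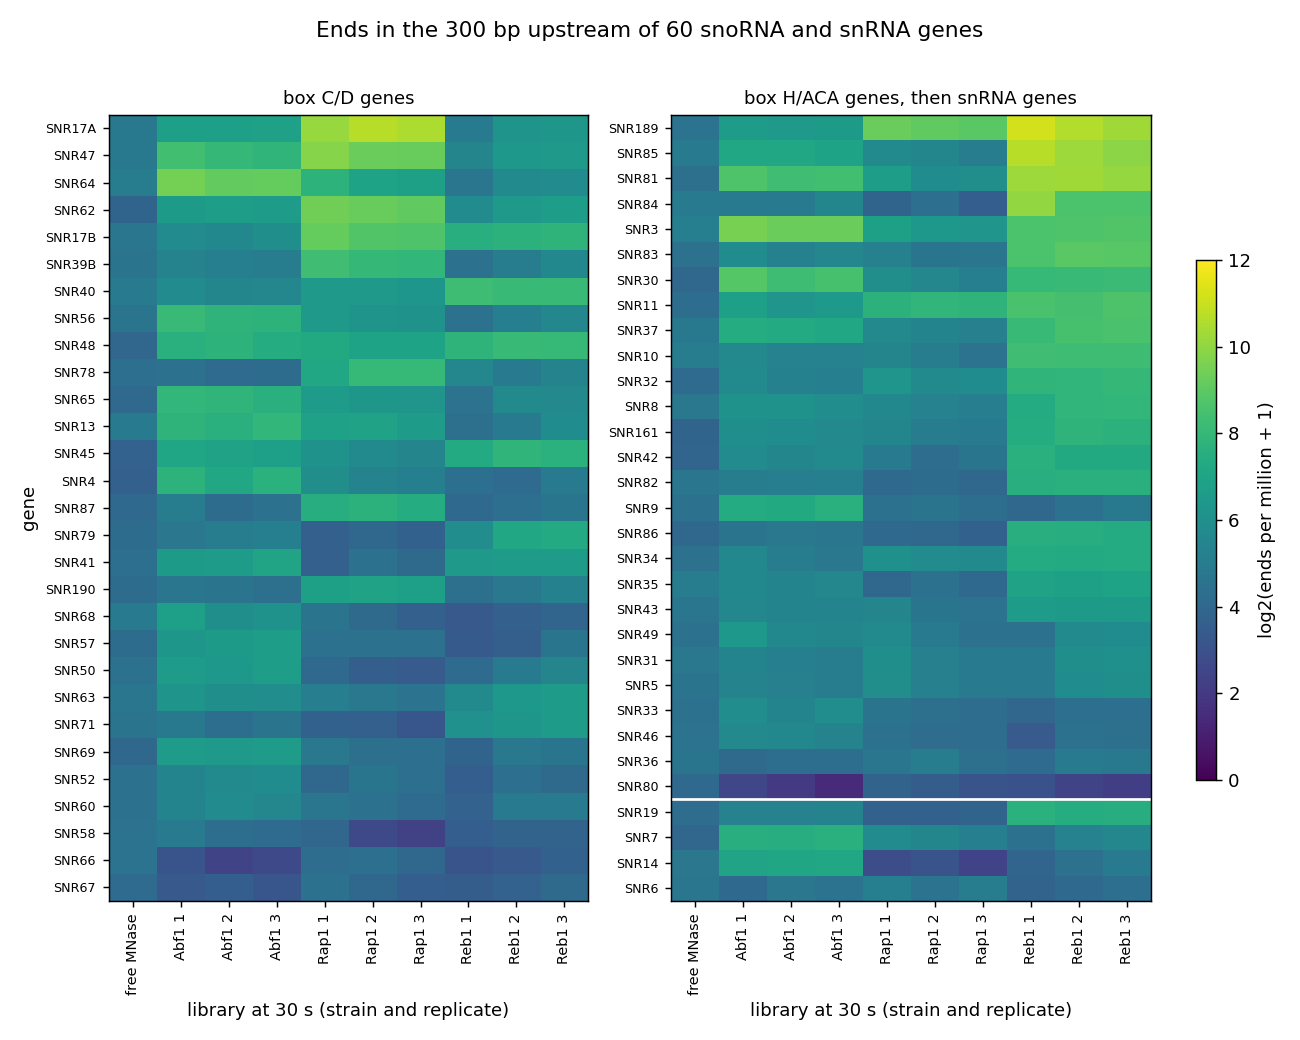
Each row is a main gene, each column a library at 30 s, and colour gives log2(EPM + 1) in the 300 bp upstream, with box C/D genes on the left, box H/ACA genes on the right and the 4 snRNA genes under the white line. By the mean over replicates, SNR3 and SNR64 are brightest in the Abf1 columns and SNR17A, SNR47 and SNR62 in the Rap1 columns. In the Reb1 columns these are SNR189, SNR85 and SNR81, and SNR84 is also bright in replicate 1. The free MNase column stays between 11.8 and 34.7 EPM.

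Of the 42 strongly cleaved genes, 27 were so for a single factor (64.3%, against 79.1% of the 2344 strongly cleaved windows in the genome). Abf1 alone passed at 9 genes (15% of members, 14.0% of all windows), Rap1 alone at 5 (8.33% and 4.86%) and Reb1 alone at 13 (21.7% and 10.3%), while 12 genes passed for a pair of factors and 3 for all of them. Abf1 and Reb1 shared 7 genes (SNR3, SNR30, SNR37, SNR41, SNR45, SNR81 and SNR85), Abf1 and Rap1 shared SNR47, SNR64 and SNR65, and Rap1 and Reb1 shared SNR17B and SNR189. The contrasts use the same free MNase library. The remaining 18 genes passed for none, among them the RNA polymerase III genes SNR6 and SNR52. Reb1 gave the highest mean level of the 3 factors at 26 genes, Abf1 at 21 and Rap1 at 13.

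Upstream neighbours limit what a window can be assigned to. A divergent gene is the upstream neighbour of 29 main genes, so that a site between them cannot be told apart as belonging to either gene, and 17 main genes have another gene within 300 bp. SNR5 and SNR31 are divergent from each other and share most of a window. Reb1 cleaved 11 of the 29 genes with a divergent neighbour strongly and 14 of the 31 others. The counts were 10 and 12 for Abf1 and 8 and 5 for Rap1. In percent these are 37.9 and 45.2 for Reb1, 34.5 and 38.7 for Abf1 and 27.6 and 16.1 for Rap1. Over all windows the shares were 16%, 20.7% and 8.98%. Among the 43 main genes with no gene within 300 bp, 44.2% were strongly cleaved by Abf1, 27.9% by Rap1 and 41.9% by Reb1, where all windows with this property gave 22.8%, 10.9% and 17.7%.

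The factors differed in the RNA class whose genes they cleaved. Rap1 cleaved 11 of the 29 box C/D genes strongly (37.9%) but 2 of the 27 box H/ACA genes (7.41%). Over all windows the Rap1 share was 8.98%, near that of the box H/ACA genes. Reb1 showed the opposite order, with 7 of 29 box C/D (24.1%) and 17 of 27 box H/ACA genes (63.0%), against 16% of all windows. Abf1 cleaved 13 box C/D (44.8%) and 7 box H/ACA genes (25.9%) strongly, against 20.7% of all windows. Median log2 differences from free MNase were 1.64 in box C/D and 0.53 in box H/ACA genes for Rap1, 0.59 and 3.17 for Reb1, and 1.36 and 1.20 for Abf1. The order of the classes was the same in all 26 alternative analyses for Rap1 and for Reb1 and in 24 of 26 for Abf1, with 7 to 16 box C/D and 1 to 8 box H/ACA genes for Rap1 and 3 to 9 and 15 to 19 for Reb1. In 2 of the 26, which change only the member set, the class counts repeat the main result and could not differ. Whether these shares differ by more than chance was not tested, since genes are not replicates.

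**Figure D2:**
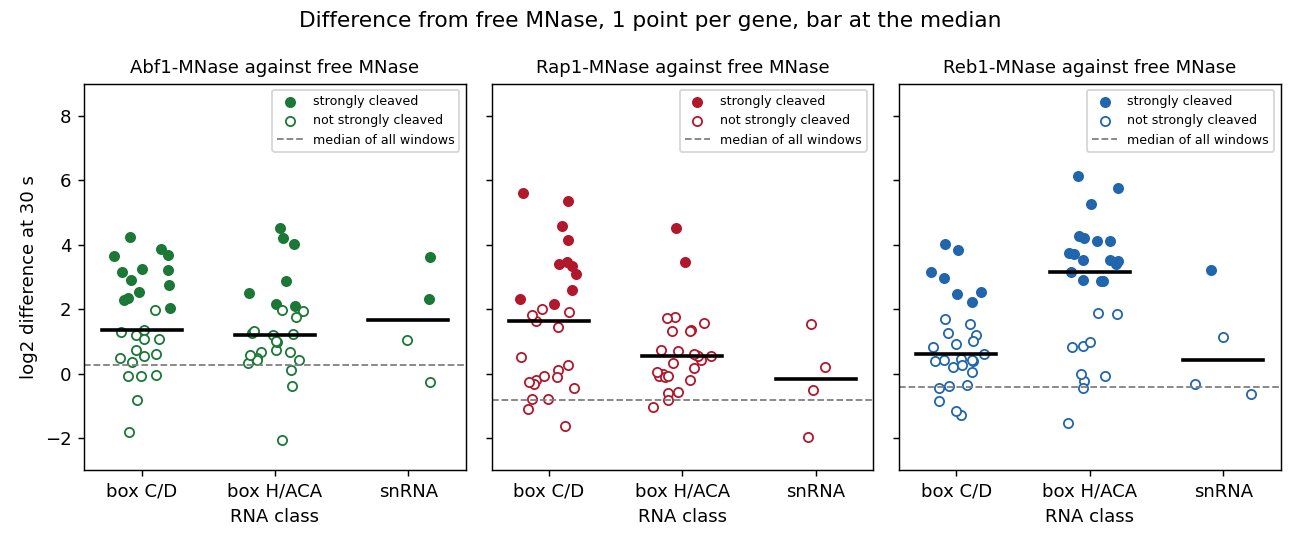
Each point is a main gene, the vertical axis is the log2 difference from free MNase at 30 s, filled points are strongly cleaved, black bars are class medians and the dashed line is the median of all windows. The filled Rap1 points are mostly box C/D genes (11 of 13) and the filled Reb1 points mostly box H/ACA genes (17 of 25).

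The factors were also compared with each other. Rap1 was higher than Reb1 at 15 box C/D genes and lower at 9, but higher at 1 box H/ACA gene and lower at 19, against 20.2% higher and 45.5% lower over all windows. Abf1 was higher than Reb1 at 14 and lower at 7 box C/D genes, and higher at 4 and lower at 17 box H/ACA genes (45.7% and 22.1% of all windows). Abf1 was higher than Rap1 at 18 and lower at 11 box C/D genes and at 18 and 5 box H/ACA genes (63.2% and 13.8% of all windows). Over the 60 genes these contrasts gave 17 higher and 30 lower for Rap1 against Reb1, 20 and 25 for Abf1 against Reb1, and 39 and 16 for Abf1 against Rap1. The splits depended on the scaling, becoming 26 and 27, 17 and 33, and 17 and 21 with median scaling, under which the median Rap1 difference of all windows from free MNase moved from −0.83 to −0.15. With the scaling of the authors' software Reb1 was higher than free MNase at 29 and lower at 13 genes.

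Among box C/D genes, the U3 gene SNR17A had the highest Rap1 level. SNR17A stood at 1145, 1657 and 1451 EPM in the 3 Rap1 replicates, at 107, 107 and 116 with Abf1, at 28.8, 73.6 and 81.6 with Reb1, and at 27.5 with free MNase. The Rap1 replicates lay far above all other libraries, and the difference from free MNase was 5.62 ± 0.40 in log2 (SE; limma adjusted p = 3.01e-12). With Abf1 it was higher by 1.96 (adjusted p = 0.000108), and by 0.40 (adjusted p = 0.256) with run code as a covariate. With Reb1 it was higher by 1.00 (adjusted p = 0.0302), a call lost with that covariate (0.07, adjusted p = 0.811) and without Reb1 replicate 2 or 3 (adjusted p = 0.106 and 0.107). The window of SNR17A overlaps IRC13.

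The second U3 gene had the same highest factor and a Reb1 signal besides. At SNR17B the Rap1 replicates gave 568, 429.9 and 419 EPM, the Reb1 replicates 185, 208 and 225, the Abf1 replicates 53.5, 47.4 and 62.3, and free MNase 25.3. The 3 factors did not overlap, with log2 differences from free MNase of 4.15 ± 0.31 for Rap1 (adjusted p = 9.83e-12), 2.97 for Reb1 (adjusted p = 5.14e-09) and 1.07 for Abf1 (adjusted p = 0.0046). Within 150 bp of the 5′ end the Reb1 and Abf1 calls were lost (0.92 and 0.65, adjusted p = 0.0696 and 0.203).

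SNR62 and SNR47, which encode guides for methylation, followed. SNR62 had 669, 595 and 534 EPM with Rap1, 92.7, 102 and 98.7 with Abf1, 53.9, 86.4 and 106 with Reb1 and 13.6 with free MNase. It was strongly cleaved by all 3 factors (log2 differences 5.36, 2.76 and 2.46), with Rap1 well above the others, and lay in the far part of the window: within 150 bp of the 5′ end the Abf1 and Reb1 differences were 0.08 and 0.21. SNR47 had 891, 617 and 583 with Rap1, 328, 251 and 233 with Abf1, 43.2, 84.2 and 84.8 with Reb1 and 27.9 with free MNase. Its Rap1 difference was 4.57 ± 0.36 (adjusted p = 2.36e-11) and its Abf1 difference 3.22 (adjusted p = 1.67e-08), the latter 0.69 (adjusted p = 0.121) within 150 bp.

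At other box C/D genes Rap1 was the only factor that cleaved strongly. SNR39B had 322, 252 and 249 EPM with Rap1 and 21.2 to 48.0 in all other libraries at 30 s, a log2 difference from free MNase of 3.47 ± 0.36 (adjusted p = 4.65e-09) that fell to 0.58 (adjusted p = 0.496) with fragments of up to 150 bp alone. SNR78 had 143, 263 and 259 with Rap1, 22, 17.5 and 18 with Abf1, 45.8, 31 and 40.4 with Reb1 and 20.1 with free MNase. SNR78 is the first gene of the 7-gene cluster that ends in SNR72, and its Rap1 call was lost within 150 bp of the 5′ end (0.69, adjusted p = 0.0745). Reb1 was also called higher than free MNase at SNR78. That call was lost with the scaling of the authors' software (0.27, adjusted p = 0.476) and its sign turned within 150 bp (−0.33, adjusted p = 0.428). At SNR87 the Rap1 replicates gave 175, 207 and 171, and every other library lay between 16.1 and 32.5, so that Rap1 exceeded Reb1 by 3.14 in log2. SNR190 passed as well, with 111, 119 and 107 against 17.7 with free MNase.

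Abf1 was the highest factor at another group of box C/D genes. SNR64 had 721, 552 and 572 EPM with Abf1, 215, 126 and 112 with Rap1, 25.3, 50.7 and 55.1 with Reb1 and 31.7 with free MNase. The Abf1 difference was 4.22 ± 0.39 (adjusted p = 6e-10) and the Rap1 difference 2.16 (adjusted p = 2.72e-05), whereas Reb1 overlapped free MNase (0.38, adjusted p = 0.403), and Abf1 exceeded Reb1 by 3.85. With fragments of up to 150 bp alone the Rap1 call was lost (0.49, adjusted p = 0.467). SNR4, a guide for rRNA acetylation, had 218, 147 and 201 with Abf1, 60.7, 39.9 and 35.0 with Rap1, 19.6, 17.1 and 30.3 with Reb1 and 11.8 with free MNase. Its Abf1 difference was 3.88 ± 0.36 (adjusted p = 8.88e-10), while its Reb1 difference of 0.83 (adjusted p = 0.0489) lost its call under 15 of 26 alternative settings.

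The next genes combined Abf1 with other factors. SNR65 had 249, 230.5 and 193 EPM with Abf1, 97.2, 81.8 and 76.0 with Rap1, 23.1, 52.3 and 48.4 with Reb1 and 16.3 with free MNase, with differences of 3.69 for Abf1 and 2.30 for Rap1. Both calls at SNR65 were lost with fragments of up to 150 bp alone (0.91 and 0.14, adjusted p = 0.296 and 0.868). SNR48 was one of the 3 genes cleaved strongly by every factor, at 192, 216 and 171 with Abf1, 153, 123 and 124 with Rap1, 222, 271 and 259 with Reb1 and 14.6 with free MNase. Its differences were 3.63, 3.11 and 4.01 (adjusted p = 1.75e-10, 1.94e-09 and 1.81e-11), and all 9 factor libraries lay between 123 and 271.

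Reb1 dominated the box H/ACA genes. SNR189 had 2299, 1582 and 1249 EPM with Reb1, 603, 538 and 485 with Rap1, 94.5, 88.5 and 91.7 with Abf1 and 22.5 with free MNase, and no replicate of one factor overlapped those of another. The Reb1 difference was 6.14 ± 0.32 (adjusted p = 2.25e-14), the highest of the main genes for any factor. Rap1 differed from free MNase by 4.52 (adjusted p = 3.01e-12) and Abf1 by 1.98 (adjusted p = 5.25e-06), calls that were lost with fragments of up to 150 bp alone (1.64 and 0.57, adjusted p = 0.0689 and 0.553). The excess of Reb1 over Rap1, −1.61 for Rap1 against Reb1, was lost when identical fragments were counted once (0.013, adjusted p = 0.938).

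SNR81 and SNR85 came next. SNR81, which guides pseudouridylation of both rRNA and U2 snRNA, had 1202, 1245 and 1087 EPM with Reb1, 407, 314 and 332 with Abf1, 100.4, 56.1 and 59.7 with Rap1 and 20.5 with free MNase. Its differences were 5.77 ± 0.33 for Reb1 (adjusted p = 1.17e-13), 4.02 for Abf1 (adjusted p = 1.04e-10) and 1.71 for Rap1. SNR85 had 1675, 1198 and 977 with Reb1, 148, 139 and 124 with Abf1, 52.6, 44.8 and 32.3 with Rap1 and 31.3 with free MNase. Reb1 was 5.28 ± 0.34 above free MNase there (adjusted p = 6.95e-13) and Abf1 2.09 (adjusted p = 5.4e-06), while Rap1 did not pass (0.43, adjusted p = 0.265).

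At some box H/ACA genes Reb1 was the only factor that cleaved strongly. SNR83 had 384, 492 and 468 EPM with Reb1 and between 22.3 and 55.7 in the other 7 libraries. Abf1 was also called higher than free MNase at SNR83. That call was lost in 500 bp windows (0.55, adjusted p = 0.126) and its sign turned in 150 bp windows (−0.89, adjusted p = 0.036). SNR84 had 1045, 390.4 and 393 with Reb1, 29.5, 28.9 and 44.0 with Abf1, 13.4, 19.6 and 11.2 with Rap1 and 30.7 with free MNase. Reb1 replicate 1 lay far above the other replicates at SNR84, the largest relative spread of Reb1 over the main genes (coefficient of variation 61.9%), yet all 3 lay above every other library. The Reb1 difference of 4.10 fell to 0.58 (adjusted p = 0.197) within 150 bp of the 5′ end. Rap1 against Reb1 gave −5.15 at SNR84, −4.85 at SNR85 and −4.06 at SNR81.

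Abf1 and Reb1 were both strong at SNR30 and SNR3. SNR30, whose RNA is essential for 18S rRNA processing, had 463, 308 and 358 EPM with Abf1, 259.9, 284 and 291 with Reb1, 60.9, 46.2 and 35.8 with Rap1 and 15.2 with free MNase. Abf1 differed from free MNase by 4.53 ± 0.33 (adjusted p = 2.51e-11) and Reb1 by 4.11 (adjusted p = 4.85e-11), and the 2 factors did not differ from each other by the test (0.42 ± 0.23, adjusted p = 0.118). SNR3 had 752, 610.2 and 607 with Abf1, 383, 418 and 434 with Reb1, 114, 82.6 and 76.4 with Rap1 and 34.7 with free MNase. In the SNR3 window the 25 bp with most Abf1 ends were centred at −200 bp and those with most Reb1 ends at −128 bp. The single base with most Abf1 ends, at −124 bp, lay within the Reb1 maximum, so that both factors cut there and Abf1 also farther out. Rap1 had the same top base and the same 25 bp centre as Abf1, at a lower level (7.02 against 63.1 EPM at that base). These positions were thus not particular to 1 factor. Abf1 against Reb1 turned to −1.04 within 150 bp.

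SNR11 was cleaved strongly by all 3 factors and SNR9 by Abf1 alone. SNR11 had 378, 351 and 395 EPM with Reb1, 211, 238 and 219.7 with Rap1, 109.9, 75.2 and 87.7 with Abf1 and 19.3 with free MNase. The factors were separated at SNR11, at log2 differences of 4.21, 3.46 and 2.16. SNR9 had 163, 157 and 193 with Abf1 and between 15.5 and 28.1 in all other libraries, so that Abf1 exceeded both Rap1 and Reb1 by 2.95. Only 71 windows of the genome (1.12%) were cleaved strongly by all 3 factors, 3 of them being SNR11, SNR48 and SNR62.

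Of the 4 spliceosomal snRNA genes among the members, Abf1 alone cleaved SNR7 and SNR14 strongly, Reb1 alone SNR19, and no factor SNR6. The gene for U2 snRNA is not among the members. SNR7 encodes U5 and had 190.4, 179 and 196 EPM with Abf1, 55.1, 44.2 and 35.8 with Rap1, 21.1, 39.3 and 45.3 with Reb1 and 14.6 with free MNase. SNR14 encodes U4 and had 128, 131 and 144 with Abf1, 6.22, 7.73 and 4.34 with Rap1, 14.1, 21.1 and 29.3 with Reb1 and 26.1 with free MNase. Abf1 was the high factor at both, at 3.61 ± 0.36 (adjusted p = 2.67e-09) and 2.32 (adjusted p = 2.74e-06) above free MNase. At SNR14 Rap1 lay below free MNase by −1.96 (adjusted p = 3.18e-05), and Abf1 against Rap1, at 4.28, was the largest such difference among the main genes. With fragments of up to 150 bp alone the Abf1 and Rap1 calls at SNR14 were lost (1.97 and −2.38, adjusted p = 0.155 and 0.0823).

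SNR19 encodes U1 and was a Reb1 gene. It had 202, 169.9 and 176 EPM with Reb1, 39.1, 39.4 and 40.0 with Abf1, 12.4, 12.4 and 13.4 with Rap1 and 18.7 with free MNase, and Reb1 differed from free MNase by 3.21 (adjusted p = 8.18e-10). SNR6 encodes U6 and showed no call for any factor, at 16.0, 25.9 and 22.6 with Abf1, 35.2, 22.8 and 31.8 with Rap1, 12.9, 16.2 and 20.1 with Reb1 and 25.5 with free MNase. The signs at SNR6 turned with the scaling and the window, as did the Rap1 sign at SNR19 (−0.52, adjusted p = 0.13).

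A few main genes had a lower level than with free MNase, which is a lower share of ends and need not mean fewer cuts. Abf1 was lower at SNR80 (−2.07), SNR66 (−1.82) and SNR67 (−0.82), Reb1 at SNR80 (−1.53), SNR68 (−1.28) and SNR66 (−1.16), and Rap1 at SNR14, SNR58 (−1.62), SNR71 (−1.10), SNR84 (−1.05) and SNR35 (−0.82). SNR66 and SNR80 were thus low for both Abf1 and Reb1, which share the free MNase library, and SNR66 has NME1 163 bp upstream. The Rap1 call at SNR84 was lost under 7 of 26 alternative settings and its sign turned under 2.

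Along the genes, the median level of cleavage peaked between 200 and 151 bp before the RNA 5′ end. This median level in 25 bp bins over the 60 genes was highest from 200 to 176 bp upstream with Abf1 (6.20 EPM), and from 175 to 151 bp upstream with Rap1 (4.17) and Reb1 (4.81). Free MNase did not exceed 2.2 EPM in any bin. The mean over genes peaked farther out for Rap1 (20.9 EPM from −275 to −251 bp) and Reb1 (34.8 EPM from −225 to −201 bp). In the strongly cleaved genes the 25 bp with most ends were centred at a median of −195.5 bp for Abf1, −232 bp for Rap1 and −168 bp for Reb1, and 9 of the 13 Rap1 maxima lay 201 to 300 bp upstream. These 25 bp held a median of 63.8% of all ends in the window for Reb1, against 34.8% for Abf1 and 33.7% for Rap1, so that Reb1 cuts were the most focused. The 3 replicates placed their maxima within 25 bp of each other in 19 of 22 genes for Abf1, 11 of 13 for Rap1 and 24 of 25 for Reb1.

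**Figure D3:**
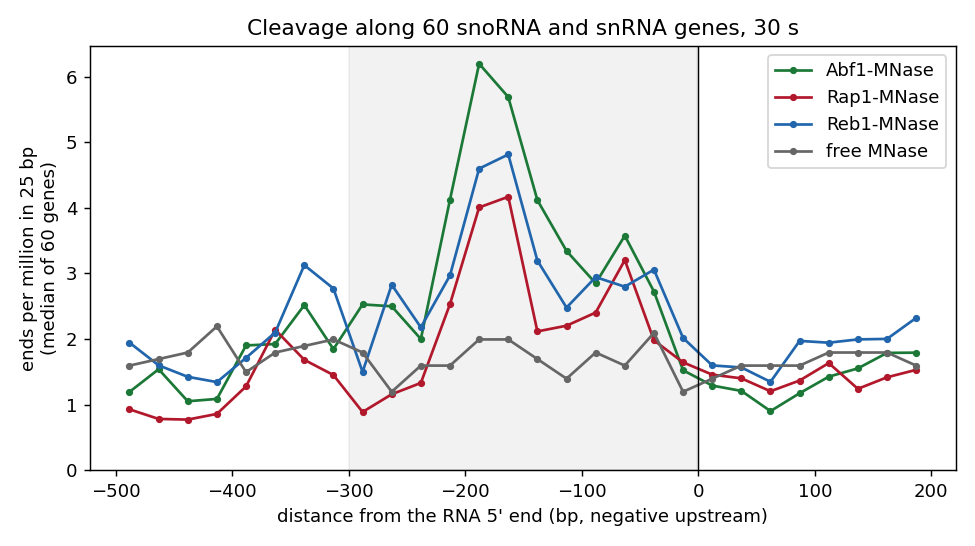
The median level over the 60 main genes in 25 bp bins is plotted against distance from the RNA 5′ end (negative upstream), with the 300 bp window shaded and lines for the mean of 3 replicates of each factor or the single free MNase library at 30 s. The medians of all 3 factors rise to a maximum of 4.17 to 6.20 EPM between 200 and 151 bp upstream, while free MNase stays flat.

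Sequence matches were counted on both strands of the 300 bp windows. TTACCCG occurred in 11 main windows (18.3%, against 7.68% of all windows), of which 9 were box H/ACA genes and 1 a box C/D gene. The Rap1 motif ACCCNNACA occurred in 6 (10%, against 3.17%), the Abf1 consensus in 6 (10%, against 12.7%) and the Tbf1 motif ANCCCTAA in 13 (21.7%, against 2.46%). A TATAAA was found in 50 of the 60 windows (83.3%, against 48.9% of all windows), in 26 of 27 box H/ACA and 20 of 29 box C/D genes. Matches overlap in a few windows: ACCCNNACA shares bases with TTACCCG in SNR82 and with TTACCC in SNR30 and SNR84.

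Windows with and without each factor's own motif were set side by side, with no test of the difference. Reb1 cleaved 10 of the 11 TTACCCG windows strongly, SNR35 being just below the threshold at 1.87, and 15 of the 49 others, where the shares over all windows were 80.8% and 10.6%. Abf1 cleaved all 6 windows with its consensus strongly (SNR4, SNR7, SNR9, SNR13, SNR14 and SNR56) and 16 of the 54 others (84.0% and 11.5% over all windows). Rap1 cleaved 2 of 6, the U3 genes, and 11 of 54 (49.8% and 7.65%), and its median difference was 0.50 with the motif and 0.54 without. For Reb1 these medians were 3.42 and 0.86 and for Abf1 3.08 and 1.13. With and without the Tbf1 motif the median differences were 1.07 and 1.26 for Abf1, 0.61 and 0.50 for Rap1 and 1.20 and 1.25 for Reb1. The shares without a motif, 30.6% for Reb1, 29.6% for Abf1 and 20.4% for Rap1, were above those of all windows without it.

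Incomplete Reb1 motifs covered part of the remainder, a search chosen after the sequences had been seen. TTACCC or TACCCG without the full motif was present in 9 main windows, of which Reb1 cleaved 7 strongly (77.8%, against 36.6% of 754 such windows in the genome). They were SNR3, SNR17B, SNR30, SNR32, SNR79, SNR81 and SNR84, with SNR47 and SNR78 below the threshold. Among the 40 main windows with neither, 8 were strong (20%, against 6.74%), and SNR85 was one of these.

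At strongly cleaved genes the cuts mostly flanked the matches. The centre of the 25 bp with most ends lay a median of 23 bp from the middle of the Abf1 consensus, within 50 bp in 6 of 6 strongly cleaved genes, and a median of 19.5 bp from TTACCCG, within 50 bp in 9 of 10. SNR86 was the exception at 146 bp, its match lying 290 bp upstream inside RKR1. For Rap1 the distances were 33 bp at SNR17A and 22 bp at SNR17B. Within the 13 bases of the Abf1 consensus the mean was 0.0305 EPM per base, against 1.98 in the 30 bp on either side, and it was lower inside at 6 of 6 genes. Reb1 gave 0.118 inside TTACCCG and 4.71 beside it, lower inside at 11 of 11 genes, and Rap1 0.231 and 2.55, lower inside at 6 of 6. Of these 6 windows Rap1 cleaved only those of the U3 genes strongly. In the others its maxima lay from 44 bp (SNR82) to 161 bp (SNR35) from the match. The study, which scored sites with a position frequency matrix, reports a cleavage peak in the middle of high-scoring Rap1 matches genome-wide. Free MNase showed no such gap at the Reb1 motif (0.0725 inside, 0.0708 beside).

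**Figure D4:**
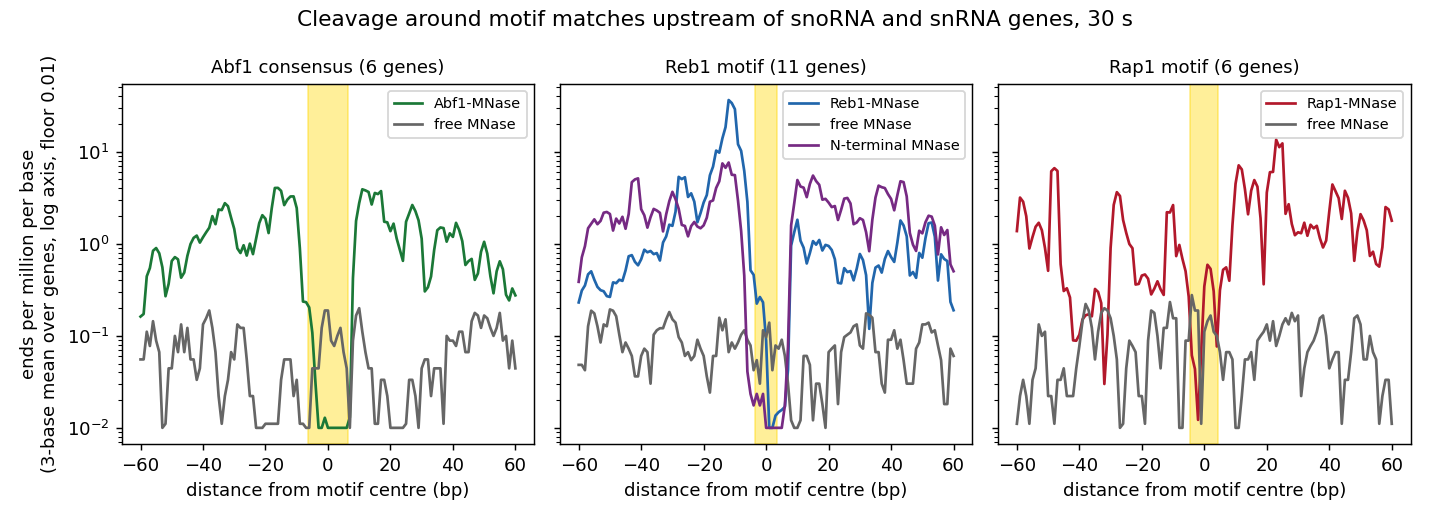
EPM per base (log axis, smoothed over 3 bases, mean over genes) are plotted against distance from the motif centre for 6 windows with the Abf1 consensus, 11 with the Reb1 motif and 6 with the Rap1 motif, with the motif shaded and free MNase in grey. Cleavage drops inside each motif, and Reb1-MNase ends pile up on the 5′ side of TTACCCG whereas the N-terminal MNase cuts both sides.

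Reb1 cuts fell almost entirely on one side of its motif. Read in the direction TTACCCG, a median over 11 genes of 97.4%, 95.2% and 95.5% of the ends within 30 bp lay on the 5′ side in the 3 replicates at 30 s, and it was over 50% at 10 of 11 genes in each. SNR86 was the exception, at 17.8%, 22.2% and 22.5%. The short linker library gave 97.4%. With Abf1 and its consensus the medians were 49.5%, 55.8% and 44.6%, and 3 of 6 genes were over 50%.

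The N-terminal fusion gave another distribution. In the single N-terminal Reb1 library at 30 s the median share on the 5′ side was 56.7%, and it was below the lowest of the 3 C-terminal replicates at 11 of 11 genes, by more than 10 percentage points at 10. At SNR189 the C-terminal replicates had 94.9%, 89.0% and 88.6% of ends on the 5′ side and the N-terminal library 46.2% (95% Wilson interval 44.2 to 48.2%, counting error only, since amplified reads are not independent molecules). At SNR11 the values were 90.4%, 80.3% and 83.4% against 31.2%, and at SNR45 98.8%, 95.7% and 95.9% against 73.2%. With 1 N-terminal library there is no replicate check, and its strain also differs by the plasmid and the deleted chromosomal REB1. Its run code differs from those of the C-terminal replicates but is shared with the short linker library, whose median is given above. The C-terminal share also moved with digestion, from a median of 97.9% at 10 s to 90.5% at 2.5 min, 67.5% at 10 min and 60% at 20 min.

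Strong cleavage was seen with every tag variant that has a library. The study also made a Rap1 short linker strain, in which it saw no cleavage and which has no library here. All 25 genes that Reb1 cleaved strongly were at least 4-fold above free MNase at 30 s in both the short linker and the N-terminal library, as were 18 of 22 for the Abf1 short linker. The same free MNase library had been used to choose these genes. The medians over those 25 genes were 223 EPM with the short linker and 263 with the N-terminal tag, against 241 with the full linker. SNR19 was the gene with the largest gain in the N-terminal library, at 382 against 169.9 to 202. After 5 min few genes kept a 4-fold excess, namely 5 of 25 with the Reb1 short linker, 3 of 25 with the N-terminal tag and 3 of 22 with the Abf1 short linker. That excess is over free MNase at 5 min, whose median over the main genes was 62.7 EPM, against 22.3 at 30 s. At 5 min the strongly cleaved genes had medians of 144 with the Reb1 short linker and 149 with the N-terminal tag, against 150 with the full linker. For Abf1 they were 109 with the short linker and 118 with the full linker.

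The strongly cleaved genes and the rest were followed over digestion time. Without calcium the medians of both sets were close, at 32.0 and 29.5 EPM for Abf1, 42.9 and 33.7 for Rap1 and 59.4 and 40.6 for Reb1. After 10 s the strongly cleaved genes stood at 155, 169 and 166 and the others at 31.7, 19.9 and 16.8. The genes were sorted on their 30 s libraries, so that the gap between the sets at this and nearby times is partly set by that choice and is a description.

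Later the levels of the 2 sets converged. Levels are shares of nuclear ends outside the rDNA, so a fall is not by itself a loss of cuts. From 2.5 to 20 min the level fell in 22 of 22, 13 of 13 and 23 of 25 strongly cleaved genes, ending at medians of 69.5 for Abf1, 109 for Rap1 and 85.8 for Reb1. Among the other genes it fell in 21 of 38, 15 of 47 and 6 of 35. The median of these other genes was 63.5 at 2.5 min and 57.2 at 20 min with Abf1, 59.7 and 76.9 with Rap1, and 40.2 and 53.3 with Reb1. Over all windows the medians were 46.5 and 44.8 with Abf1, 27.9 and 47.4 with Rap1, and 31.2 and 46.3 with Reb1. These all-window medians moved in the same direction as those of the other genes. With free MNase the median over the 60 genes was 24.1 without calcium, 22.3 at 30 s, 26 at 60 s, 57.6 at 2.5 min and 56.4 at 20 min. All windows had free MNase medians of 22.9 at 30 s, 34.0 at 2.5 min and 43.5 at 20 min. All full-linker factor libraries over 1 min, and those of Abf1 and Reb1 without calcium, had another run code than the shorter digests, so for the factors digestion time and run code cannot be told apart there, whereas all free MNase libraries shared a code. For no strain, free MNase included, is it stated whether the shorter and longer times came from the same digest. Reb1 fragments over 1 min were also shorter, with medians of 99 to 148 bp against 209 to 238 bp at 30 s.

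Single genes followed this course. SNR17A in the Rap1 strain went from 62.7 EPM without calcium to 1349 at 10 s, 1368 at 20 s, 750.4 at 60 s, 422 at 2.5 min and 64.3 at 20 min. SNR189 in the Reb1 strain went from 71.0 to 2393, 2616, 1504, 265 and 75.5 at the same times. With all fragments counted, both were thus near their maximum within 10 s and back to their level without calcium at 20 min. Each of these times is 1 library. Distinct fragments made up 13.8% of the Reb1 library at 10 s and 45.5% of that of Rap1, and 31.8% and 16.5% without calcium. With identical fragments counted once, the 60 Reb1 windows together had 7238 EPM at 10 s and 8758 at 30 s, against 10846 and 10977 with all fragments. SNR30 in the Abf1 strain had 578 at 10 s, 382 at 60 s and 85.2 at 20 min. Together the 60 windows took 0.639% of nuclear ends with Abf1, 0.669% with Rap1 and 1.10% with Reb1 at 30 s, against 0.133% with free MNase.

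**Figure D5:**
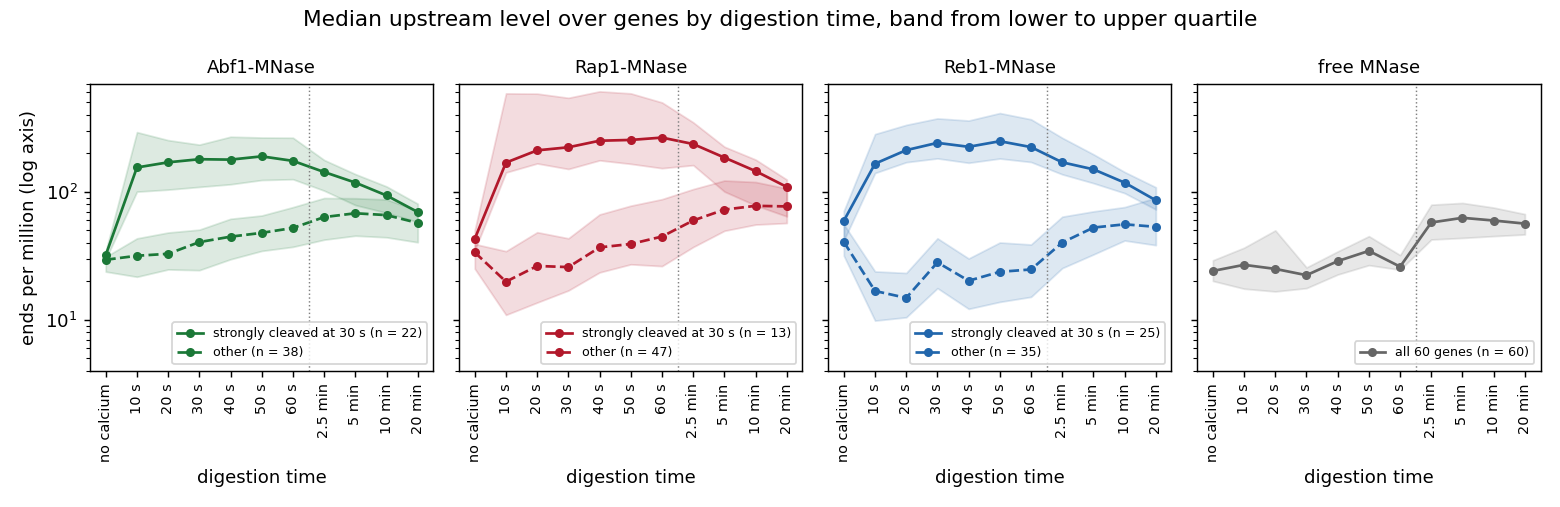
Median EPM (log axis) over main genes are plotted against digestion time for the 4 strains, with solid lines for genes strongly cleaved at 30 s, dashed lines for the others, bands from the lower to the upper quartile over genes, and a dotted line where the factor libraries change run code. The solid lines leave the dashed ones by 10 s and meet them again towards 20 min, while free MNase rises from 26 at 60 s to 57.6 at 2.5 min.

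SnoRNA genes that are not the first of a unit are given apart. Of the 8 intronic genes, 7 were lower than free MNase with Abf1, 7 with Rap1 and 6 with Reb1, where 22.2%, 51.9% and 37.1% of all windows were lower, with median log2 differences of −1.85, −1.96 and −2.16. SNR18, inside the EFB1 intron, was the exception for Abf1 (1.16) and Rap1 (1.98), and SNR38, inside TEF4, for Reb1 (1.13). Of the 12 downstream cluster genes, 3 were higher and 4 lower with Abf1, 3 and 2 with Rap1 and 2 and 0 with Reb1, where 38.5%, 16.6% and 25.8% of all windows were higher. Their median differences were −0.34 for Abf1, 0.52 for Rap1, close to the 0.54 of the main genes, and 0.07 for Reb1. SNR72 stood out among them with 155, 165 and 147 EPM with Rap1 against 11 with free MNase (log2 difference 3.71, adjusted p = 4.49e-10), and SNR61 was the one strongly cleaved by Abf1 (2.27, adjusted p = 1.5e-06).

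The upstream regions of the 8 host genes differed among themselves. Rap1 cleaved 5 of 8 strongly (8.98% of all windows), namely the ribosomal protein genes RPL7A (4.74) and RPL7B (3.62), the translation elongation factor genes EFB1 (4.10) and TEF4 (3.80), and ASC1 (2.41), whose product is a ribosome-associated protein. Rap1 was lower at the other 3, which are RPS22B (−3.18), NOG2 and IMD4 (−1.30). Abf1 cleaved EFB1, RPL7A and NOG2 strongly (20.7% of all windows), and Reb1 cleaved TEF4 (3.41), 1 of 8 where 16% of all windows passed. RPS22B was lower with Abf1 (−1.61) and Reb1 (−2.76) too, and IMD4 with Reb1 (−1.04), while Abf1 gave −0.74 there (adjusted p = 0.0672). At NOG2, which encodes a GTPase of 60S subunit assembly, Abf1 was 2.42 above and Rap1 2.11 below free MNase on the log2 scale.

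Genes for the proteins that act with snoRNAs were read against the same background. Of the 23 listed genes (core proteins, assembly factors and processing factors), Abf1 was higher than free MNase at 12 and lower at 4, Rap1 at 1 and 12, and Reb1 at 7 and 6. Over all windows Abf1 was higher at 38.5% and lower at 22.2%, Rap1 at 16.6% and 51.9% and Reb1 at 25.8% and 37.1%, so that the Rap1 lower and Reb1 higher shares of the list are near the background. Abf1 was higher at all 5 box C/D protein genes, among them RRP9 of the U3 particle (177 ± 23 EPM, SD, n = 3; log2 difference 3.66), NOP58 (3.48) and NOP56 (3.06). It was also higher at all 4 box H/ACA protein genes, including CBF5 (3.46), the pseudouridine synthase, NOP10 (2.86) and NHP2 (2.68). Reb1 cleaved NHP2 (3.57), NAF1 (3.19), NOP56 (3.14), SNU13 (2.96), NAB3 (2.45) and BCD1 (2.23) strongly. Rap1 cleaved none of the 23 strongly and was higher at NAB3 alone (0.97).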

How the data were processed

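Fragment lists of the ChEC-seq libraries were analysed, and 1 Abf1 MNase-X-ChIP library was not used. Per the sources, the authors permeabilized cells with digitonin, added calcium, removed large DNA with beads, sequenced both ends of what remained and aligned reads with Novoalign 2.08.03 to sacCer3. The deposited values are fragment starts and ends, 1 line per fragment, with identical fragments kept and no normalization.

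Both ends of each fragment were counted in the 300 bp upstream of every nuclear gene of the RefSeq sacCer3 annotation outside the rDNA and its 1000 bp flanks, and scaled to EPM, ends per 1000000 such nuclear ends. Files held no gene counts, so limma 3.58.1 (R 4.3.3) was used on log2(level + 1) with an intensity trend, group as the only term, 10 libraries at 30 s, windows with a mean of at least 10 ends (6361 windows, all 60 main genes among them) and Benjamini-Hochberg adjustment. Python 3.11.15 was used for counting. Every p-value printed is from limma. The script was tested on simulated data. Groups came from the labels. Other times and tags had 1 library each and no test. The members, lists and thresholds were chosen with earlier results of these data known. Genes named in full were the 6 with the highest difference for each factor, all snRNA and U3 genes among the members and SNR30, those strong for all 3 factors, and the 3 most extreme either way between factors.

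Alternatives were other scalings, denominators, pseudocounts (0.1 and 5), filters, windows (150 and 500 bp, or cut at the nearest gene), fragments of up to 150 bp, identical fragments counted once, run code as a covariate, limma voom, other member sets, a replicate block and leaving out each library. The other member sets reuse the main fit, so calls of single genes could not change under them. Abf1 and Rap1 libraries with the same replicate number deviated together (correlations 0.42, 0.124 and 0.221), so those numbers were taken to pair them, while for Reb1 they were not. These pairs also shared run codes, and within the run code of replicates 2 and 3 the Abf1 and Rap1 pairs with different numbers correlated as much (0.186 and 0.198).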

Additional observations from a re-analysis of the deposited data

How the results depend on the processing

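The counts of higher and strongly cleaved main genes for Abf1 and Reb1 stayed within 1.5 times of the reported values under every alternative, whereas Rap1 counts and the small counts of lower genes did not. Rap1 was higher than free MNase at 40 genes with median scaling, 42 with identical fragments counted once and 13 with fragments of up to 150 bp, and strongly higher at 25, 22 and, with identical fragments once plus run code as a covariate (chosen after seeing the data), 21. Genes lower with Abf1 numbered 1 with a minimum mean of 50 ends, 10 in 150 bp windows, 1 with windows cut at the nearest gene, 0 with short fragments, 14 over all 80 genes and 1 with fragments once plus run. Genes lower with Rap1 numbered 1 with median scaling, 21 with the scaling of the authors' software, 1 with fragments once, 9 and 8 in 150 and 500 bp windows, 3 with cut windows, 9 with run as a covariate, 14 over all 80 genes and 3 with fragments once plus run. Genes lower with Reb1 numbered 13 with the authors' scaling, 1 with fragments once, 8 and 5 in 150 and 500 bp windows, 1 with short fragments, 10 with run and 9 over all 80. Abf1 exceeded Rap1 at 17 genes with median scaling and was below it at 6 with short fragments and 27 over all 80, and Rap1 exceeded Reb1 at 26 with median scaling, 8 with short fragments and 26 over all 80. The cause of these changes was not tested. For named genes, 27 differences changed sign. With identical fragments once these were SNR6 for Abf1 (0.24) and Reb1 (0.12), SNR19 for Rap1 (0.20), SNR14 for Reb1 (0.32) and SNR189 for Rap1 against Reb1 (0.013), and with run added SNR84 (0.10) and SNR19 (0.51) for Rap1 and SNR189 again (0.11). In 150 bp windows they were SNR83 for Abf1 (−0.89), SNR6 for Rap1 (−0.45), SNR78 for Reb1 (−0.33), SNR83 for Abf1 against Rap1 (−0.41) and SNR3 for Abf1 against Reb1 (−1.04). With short fragments they were SNR6 (−1.83), SNR19 (0.66) and SNR81 (−0.56) for Rap1, SNR14 for Reb1 (0.031), SNR48 for Abf1 against Rap1 (−0.036) and SNR6 for Rap1 against Reb1 (−0.14). With median scaling they were SNR19 for Rap1 (0.16) and SNR48 (−0.40) and SNR83 (−0.25) for Abf1 against Rap1. The rest were Rap1 at SNR6 with the authors' scaling (−0.48), in 500 bp windows (−0.054) and with run (−0.32), Rap1 at SNR84 with run (0.23) and Reb1 at SNR14 with cut windows (0.016). Of all other differences of named genes over these alternatives, 3134 kept direction and side of the threshold, 108 lost their call and 12 gained one. Among those kept, 124 under each of the other member sets could not change, because these sets reuse the main fit.

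Leaving out 1 library at a time gave, with Abf1, 37 to 43 higher, 2 to 3 lower and 22 to 22 strongly cleaved genes, with Rap1, 25 to 28, 3 to 8 and 12 to 15, and with Reb1, 33 to 43, 3 to 4 and 25 to 25. It gave 34 to 40 higher and 13 to 17 lower genes for Abf1 against Rap1, 19 to 21 and 24 to 30 for Abf1 against Reb1, and 15 to 17 and 29 to 34 for Rap1 against Reb1. Lower genes for Rap1 numbered 3 without Rap1 replicate 3 and 8 without Reb1 replicate 1. The replicate block gave 39 higher and 16 lower genes for Abf1 against Rap1, where the numbers pair, and changed no call of a named gene there. For Abf1 against Reb1 (20 and 26) and Rap1 against Reb1 (17 and 30) the samples share only a number, with correlations of −0.072, −0.12 and 0.092 and of −0.042, −0.06 and 0.063. All contrasts against free MNase rest on 1 library, whose windows held as few as 59 ends. Within the run code that Reb1 replicate 1 shares with it, 23 of the 25 genes strongly cleaved by Reb1 differed by at least 2 in log2. These genes were chosen in a fit that held both libraries, so this count was partly set by that choice. It is a description and not a separate check of the run code. All other factor libraries at 30 s have other run codes than free MNase.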
